A study of Homo sapiens with 6 samples.

Results

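The genes that encode the translation initiation factors (eIFs) and elongation factors (eEFs) were followed through the SUMO-2/3 chromatin maps of the acute myeloid leukaemia cell line HL-60. They were taken by symbol, as protein-coding genes named EIF or EEF followed by a digit, which gave 70 of 19812 coding genes. The study holds 6 samples, of which the 3 SUMO-2/3 chromatin immunoprecipitations were used and the 3 inputs were not analysed here. The cells received water (mock), 2 µM cytosine arabinoside (Ara-C), a nucleoside analogue built into replicating DNA, or 1 µM daunorubicin (DNR), an anthracycline that intercalates into DNA and traps topoisomerase II, each for 2 h. Every condition is 1 library made from 3 pooled replicates of the same line, so no difference between conditions has a replicate check, and effects of drug and of library cannot be told apart. A gene was counted when the midpoint of a peak lay between 2 kb upstream and 1 kb downstream of any of its transcription start sites (TSSs), called its window here. Distances run from a peak's midpoint to the nearest TSS of the gene, which can differ between peaks of a gene. The lists give positions and widths alone, with no height, so a gene without a peak is a gene where no run of signal met the peak rule.

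Initiation factors bring the small ribosomal subunit, the initiator tRNA and the capped mRNA together: eIF2 carries the tRNA, eIF2B recharges eIF2, eIF3 is the scaffold on the small subunit, the eIF4 proteins bind the cap and unwind the leader, and eIF5, eIF5B and eIF1A lead to joining of the large subunit. Elongation factors then deliver aminoacyl-tRNAs and move the ribosome along the message. SUMO-2 and SUMO-3 are small proteins joined to lysines of other proteins. Chromatin-bound transcription factors and their cofactors are among their common targets, and SUMO on chromatin has been described at active promoters as well as at repressed ones.

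Promoter sequence is shown for 5 of the 6 genes whose mock peaks were the widest among those reaching the 250 bases before the start site, because these are stretches that the mock peaks cover in whole or in large part (232 of 250 bases for EIF2D, 145 of 212 for EIF5A2, all of the other 3). Each is read 5′ to 3′ on the gene's strand from the hg19 genome, is the longest run free of annotated exons within those 250 bases, and carries in capitals every match, on either strand, to a list of promoter motifs. Those that matched are CACGTG, which is an E-box bound by MYC and USF proteins; CCGGAAGT, which is the ETS letters; GGGCGG, known as the GC box; and the CCAAT box. EIF2D lies at chr1:206785819-206786068 on the minus strand, EIF5A2 at chr3:170626434-170626645 on the minus strand, EIF1AD at chr11:65769648-65769698 on the minus strand, EIF4E2 at chr2:233415284-233415368 on the plus strand and EIF5 at chr14:103800324-103800525 on the plus strand. A match is a description of the letters and not a bound site.
EIF2D: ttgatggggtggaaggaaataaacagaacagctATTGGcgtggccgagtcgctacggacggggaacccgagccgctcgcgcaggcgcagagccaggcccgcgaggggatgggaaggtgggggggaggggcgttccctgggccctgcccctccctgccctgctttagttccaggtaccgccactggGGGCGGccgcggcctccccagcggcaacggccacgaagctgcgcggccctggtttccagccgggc
EIF5A2: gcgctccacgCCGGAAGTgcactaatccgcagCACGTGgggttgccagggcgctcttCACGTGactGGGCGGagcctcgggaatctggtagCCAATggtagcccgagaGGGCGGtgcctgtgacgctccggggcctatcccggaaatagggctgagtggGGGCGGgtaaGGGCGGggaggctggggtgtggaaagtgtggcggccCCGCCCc
EIF1AD: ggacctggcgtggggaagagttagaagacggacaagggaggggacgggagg
EIF4E2: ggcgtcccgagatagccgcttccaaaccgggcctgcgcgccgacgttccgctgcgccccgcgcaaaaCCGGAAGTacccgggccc
EIF5: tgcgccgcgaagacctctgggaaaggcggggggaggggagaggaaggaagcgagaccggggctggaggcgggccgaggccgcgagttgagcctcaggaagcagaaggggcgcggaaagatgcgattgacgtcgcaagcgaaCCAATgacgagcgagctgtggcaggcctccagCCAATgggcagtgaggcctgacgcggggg
The EIF5A2 stretch held 2 E-boxes, 1 ETS match, 1 CCAAT box and 5 GC boxes, and the 3 GC boxes nearest the TSS lie outside the mock peak. The EIF4E2 stretch held 1 ETS match, EIF5 held 2 CCAAT boxes, EIF2D held 1 GC box and 1 CCAAT box, and EIF1AD held none of these letters.

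In mock cells 31 of the 70 translation factor genes had a window peak, a share of 44.3% (95% Wilson interval 33.2 to 55.9%), against 24.8% of all 19812 coding genes. Under Ara-C the number was 34 of 70, or 48.6% (37.2 to 60.0%), against 30.2% of coding genes. Under DNR it was 3 of 70, or 4.29% (1.47 to 11.9%), against 8.06%. The translation factor genes thus stood above the coding genes in the mock and Ara-C lists by 19.5 and 18.3 percentage points, and the DNR interval held the background value. These intervals, and all others given here, cover counting error only. Of the 70 genes, 43 had a window peak in at least 1 list (61.4%, against 43.0% of coding genes) and 27 had none. The settings bear on these differences: from 2 kb upstream to the TSS alone, 22 genes were counted in mock and 21 under Ara-C, 12.3 and 6.51 points above coding genes, and with peaks of at least 200 bp the mock difference was 12.8 points. Among members whose window was not shared with another coding gene, 17 of 48 had a mock peak (35.4%, against 21.7% of 15766 such coding genes). Windows were shared for 14 of the 31 members with a mock peak and 8 of the 39 without, and the part of the neighbour in the former was not tested. A peak in a shared window may belong to either gene, as at EIF2B1, EIF2B4, EIF3L, EIF4E2, EIF5 and EIF5B.

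**Figure D1:**
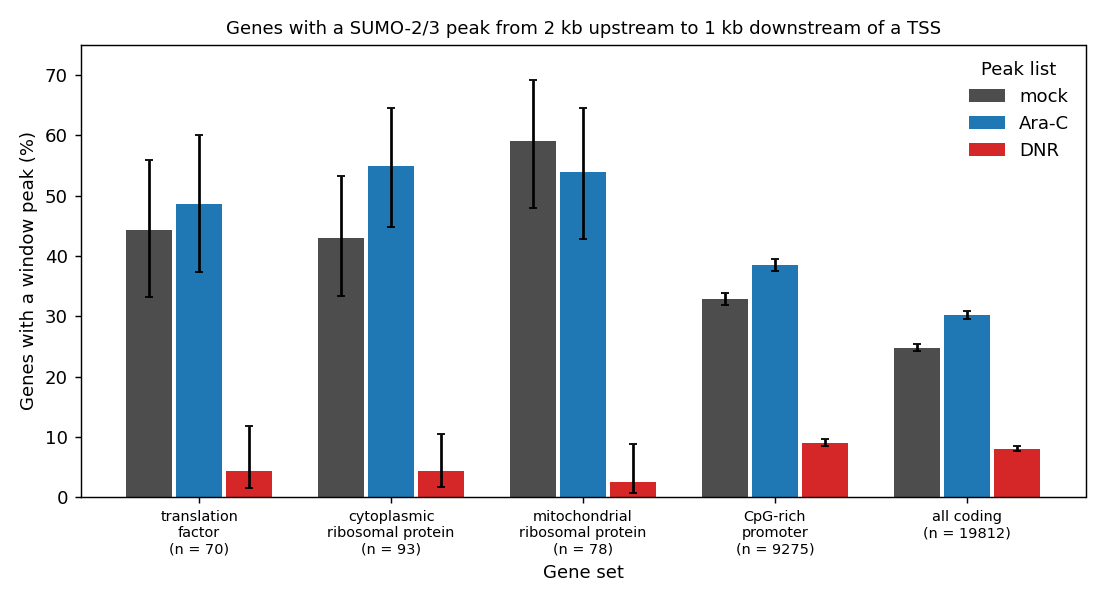
Share of genes (%, vertical axis) with a SUMO-2/3 peak from 2 kb upstream to 1 kb downstream of a TSS in each peak list, for 5 gene sets; bars are shares of 1 library and error bars 95% Wilson intervals (counting error only). The translation factor bars stand at 44.3% in mock, 48.6% with Ara-C and 4.29% with DNR, and those of all coding genes at 24.8, 30.2 and 8.06%.

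Promoters of these genes are mostly rich in CpG, and the set of CpG-rich coding genes is the nearer yardstick. Of the 56 members with a RefSeq promoter sequence (250 bases before to 50 after the start, GRCh38.p14), 46 were CpG-rich, with at least 55% GC and an observed over expected CpG ratio of at least 0.6 (82.1%, against 60.6% of the 15304 coding genes with a sequence). Among the CpG-rich members 24 of 46 had a mock peak (52.2%, 95% Wilson interval 38.1 to 65.9%), against 32.9% of 9275 CpG-rich coding genes. Under Ara-C the values were 23 of 46 (50%, 36.1 to 63.9%) and 38.4%, and under DNR they were 2 of 46 (4.35%, 1.20 to 14.5%) and 9.07%. CpG-rich promoters as a class carried more mock and Ara-C peaks than coding genes at large, and the member interval lay above the class value in mock alone, while it held that value under Ara-C and DNR.

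The counts by role that follow rest on 4 to 14 genes a group and are to be read against 24.8, 30.2 and 8.06% of coding genes in the mock, Ara-C and DNR lists. The Wilson intervals of most groups held these values. Those that did not were eIF1 and eIF1A in mock, eIF3 and the cap-binding eIF4 genes under Ara-C, and the elongation factor enzymes in both lists, with 1 locus counted under 2 names, and no group was tested. With that locus counted once, the Ara-C interval of the enzymes would hold 30.2%, while their mock interval would still lie above 24.8%. The eIF1 and eIF1A genes, whose products select the start codon and keep the scanning ribosome open, had mock peaks at 4 of 5 (80%, 37.6 to 96.4%) and Ara-C peaks at 2 of 5 (40%, 11.8 to 76.9%). EIF1 carried a 150 bp mock peak in its intron, with the midpoint 586 bp downstream of the TSS, and a 250 bp Ara-C peak with the same midpoint. EIF1AD, which encodes an eIF1A-like nuclear protein, had a 300 bp mock peak at chr11:65769551-65769850 that covers the TSS at position 65769647, and a 350 bp Ara-C peak at chr11:65769501-65769850. That promoter is shared with BANF1 on the other strand, so a peak there cannot be given to either gene. The X-linked EIF1AX and the related EIF1B had mock peaks of 150 and 250 bp, centred 1120 and 222 bp upstream, and none under Ara-C. The Y-linked EIF1AY had none in any list, and its closest peaks lay 8908012, 6046521 and 6048871 bp away in mock, Ara-C and DNR. Whether that region could give a peak in these cells is not known from the lists, and the gene stays in the counts.

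Of the 11 genes of eIF2, its exchange factor eIF2B and the eIF2-like proteins, 5 had a mock peak (45.5%, 21.3 to 72.0%) and 4 an Ara-C peak (36.4%, 15.2 to 64.6%). EIF2D, an initiator tRNA-binding factor that can act in place of eIF2, held the widest mock peak of all members, 450 bp at chr1:206785601-206786050, across the TSS at position 206785818. The Ara-C list had a peak of 500 bp with the same far edge, chr1:206785551-206786050, and no DNR peak lay in the window. A further mock peak of 150 bp sat in the intron of EIF2D, 736 bp downstream, and was not found again. Among the eIF2B subunits, EIF2B3 and EIF2B4 had peaks in both lists, of 250 and 300 bp for EIF2B3 and 250 and 350 bp for EIF2B4, all centred within 250 bp of a TSS, and a further 200 bp mock peak lay 946 bp upstream of EIF2B4. EIF2B1, which encodes the alpha subunit, had a 150 bp mock peak across the TSS and EIF2B5, which encodes the catalytic subunit, a 250 bp mock peak 1170 bp upstream, and neither had one under Ara-C. Of the genes for eIF2 itself, EIF2S2 (beta) had a 200 bp Ara-C peak 702 bp upstream and EIF2S1 and EIF2S3 (alpha and gamma) had none. EIF2B2, EIF2A and EIF2S3B, a retrocopy of EIF2S3, had none either.

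The 4 eIF2 kinases slow initiation under stress by phosphorylating eIF2, and 2 of them had a mock peak (50%, 15.0 to 85.0%). EIF2AK1, the haem-regulated kinase, had a 150 bp mock peak in its intron and none under Ara-C. EIF2AK3 (PERK), the sensor of the endoplasmic reticulum, had a 150 bp mock peak and a 200 bp Ara-C peak that overlap, and a further Ara-C peak 944 bp upstream. EIF2AK2 (PKR), which senses double-stranded RNA, and EIF2AK4 (GCN2), which senses uncharged tRNA, had no window peak in any list.

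Among the 14 eIF3 genes 5 had a mock peak (35.7%, 16.3 to 61.2%) and 9 an Ara-C peak (64.3%, 38.8 to 83.7%), intervals that overlap, and the count of 0 in the DNR list allows a share of up to 21.4%, taking 3 counts as the most that a count of 0 allows, above the 8.06% of coding genes. EIF3F had a 350 bp peak with identical limits, chr11:8008551-8008900, in mock and Ara-C. EIF3G, which encodes an RNA-binding subunit, had a 200 bp mock peak at chr19:10230551-10230750, and under Ara-C a 550 bp peak at chr19:10230251-10230800 contained it and ran into the gene. EIF3L had a 150 bp mock peak at chr22:38245901-38246050 and a separate 450 bp Ara-C peak at chr22:38245151-38245600, nearest to different TSSs of the gene, the former 488 bp downstream and the latter centred 4 bp away. EIF3B, a core scaffold subunit, had a 200 bp mock peak, an overlapping 200 bp Ara-C peak and a further Ara-C peak of 350 bp, 286 bp upstream of the TSS. EIF3D, whose product can bind the cap of some mRNAs, EIF3H, EIF3J and EIF3M had peaks of 150 to 250 bp under Ara-C only, 1012 and 432 bp upstream, 794 bp downstream and 1152 bp upstream in that order. EIF3K had 150 bp peaks in both lists that lay apart, 624 bp downstream in mock and 1046 bp upstream under Ara-C. EIF3A, EIF3E and EIF3I had none in the windows. EIF3C and EIF3CL are near-identical copies, and since the lists are named as made from uniquely placed reads, the lack of a peak at either cannot be read as a lack of signal.

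The 12 eIF4 genes of the cap-binding complex had 4 mock (33.3%, 13.8 to 60.9%), 8 Ara-C (66.7%, 39.1 to 86.2%) and 1 DNR gene (8.33%, 1.49 to 35.4%). EIF4E2, which encodes a cap-binding protein that represses translation of bound mRNAs, had a 300 bp mock peak at chr2:233415201-233415500 and a 700 bp Ara-C peak at chr2:233415151-233415850, the widest window peak of any member in any list. A 200 bp DNR peak followed at chr2:233415751-233415950, in an intron. The DNR peak overlapped the far end of the Ara-C peak and not the mock peak, and the TSS at position 233415369 lay inside the mock and Ara-C peaks only. The window of EIF4E2 is shared with TIGD1, so these peaks may belong to either gene. EIF4E, the main cap-binding protein, had a 250 bp mock peak downstream of its TSS, and the Ara-C list had 150 and 200 bp peaks, the former within the mock peak. EIF4B, which stimulates the helicase eIF4A, had overlapping intronic peaks of 200 and 250 bp. Both helicase genes EIF4A1 and EIF4A2, the scaffold genes EIF4G2 and EIF4G3, and EIF4H, a cofactor of the helicase, had peaks of 150 to 200 bp under Ara-C and none in mock. Those of EIF4A1 and EIF4A2 lay 192 and 316 bp upstream, that of EIF4G2 covered a TSS, EIF4G3 had 1 at each of 2 TSSs, and that of EIF4H lay 538 bp downstream. EIF4E3, a further cap-binding protein, had a 200 bp mock peak 1248 bp upstream of its nearest TSS and none under Ara-C. EIF4A3, the helicase of the exon junction complex, EIF4E1B and EIF4G1 had none.

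Of the 4 genes for eIF4E-binding proteins, which hold eIF4E away from eIF4G, EIF4EBP3 had overlapping 250 bp peaks in mock and Ara-C and EIF4ENIF1, the nuclear transporter of eIF4E, a 150 bp mock peak. EIF4EBP1 and EIF4EBP2 had none. Of the 6 eIF5 and eIF6 genes, 3 had peaks in mock and 3 under Ara-C (50%, 18.8 to 81.2% in each). EIF5, the GTPase activator of eIF2, had mock peaks of 200 and 300 bp, at chr14:103799951-103800150 and chr14:103800251-103800550, and none under Ara-C or DNR. EIF5A2, a second gene for the hypusine-bearing factor eIF5A, had a 350 bp mock peak at chr3:170626501-170626850, and a 200 bp Ara-C peak overlapped its upstream end. EIF5B, the GTPase of subunit joining, had a 150 bp mock peak inside a 450 bp Ara-C peak at chr2:99953401-99953850, and a further Ara-C peak of 150 bp at chr2:99952451-99952600, 1308 bp upstream. EIF5A had a 200 bp Ara-C peak 960 bp downstream, EIF6, which keeps free large subunits apart from small ones, had none by the midpoint rule, and the retrocopy EIF5AL1 had none.

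Of the 7 elongation factor genes 1 had a peak in each list (14.3%, 2.57 to 51.3%), and of the 7 genes for their modifying enzymes 5 had a mock, 5 an Ara-C (71.4%, 35.9 to 91.8%) and 1 a DNR peak, with EEF1AKMT4 and its readthrough counted apart. EEF1A1, which encodes the tRNA-delivering factor of most cells, had a 250 bp mock peak at chr6:74230051-74230300 and Ara-C peaks of 200 bp at chr6:74230501-74230700 and chr6:74230801-74231000, none overlapping the mock peak. EEF1A2, its form in muscle and neurons, had a DNR peak alone, 150 bp at chr20:62130851-62131000 and 490 bp upstream of the TSS. The exchange factor genes EEF1B2, EEF1D and EEF1G, the translocase gene EEF2 and EEF1E1, an accessory protein of the tRNA synthetase complex, had no window peak in any list. Among the lysine methyltransferases of eEF1A, EEF1AKMT1 had overlapping 200 bp peaks in mock and Ara-C, and EEF1AKMT3 had 200 bp peaks that lie apart. EEF1AKMT2 had a 150 bp mock peak inside a 200 bp Ara-C peak starting at the same base, chr10:126480251-126480400 and chr10:126480251-126480450, and a 150 bp DNR peak 1470 bp upstream of the TSS. EEF1AKMT4 and its readthrough EEF1AKMT4-ECE2 share a promoter and the same peaks, 1 in mock and 3 under Ara-C, so 1 locus enters the counts under both names, here and in the promoter motifs. Their window is also shared with ALG3, and that of EEF1AKMT3 with METTL1, so a peak there may belong to the neighbour. Without the readthrough 30 members had a mock and 33 an Ara-C peak. The eEF2 kinase gene EEF2K and the methyltransferase gene EEF2KMT had none.

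**Figure D2:**
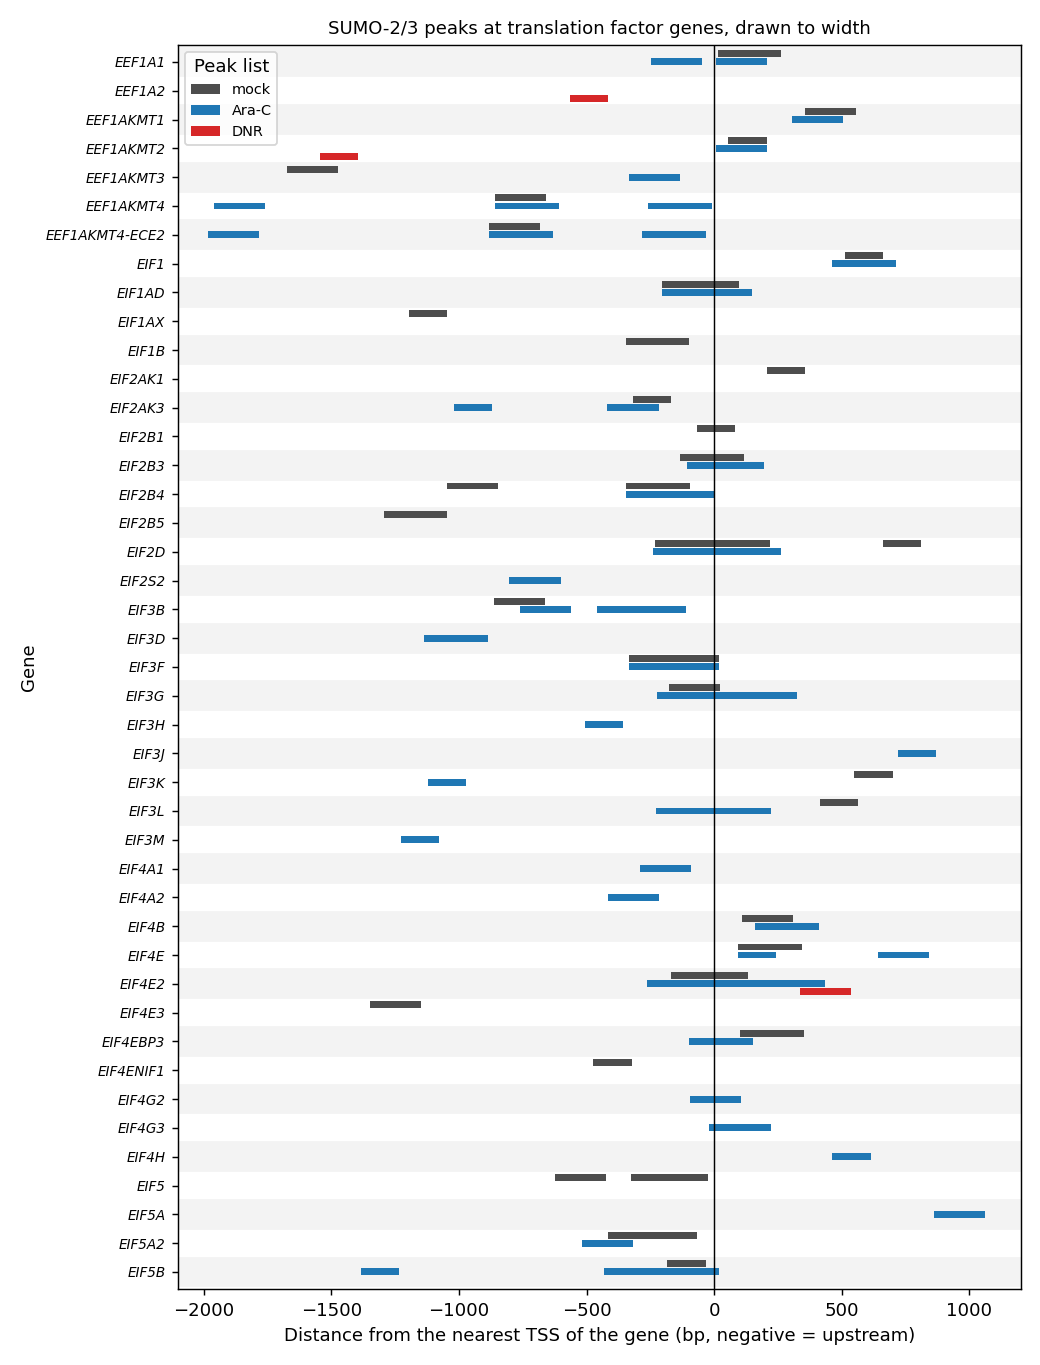
SUMO-2/3 peaks in the windows of the 43 translation factor genes with at least 1, drawn to width at their distance from the nearest TSS of the gene (bp, horizontal axis; negative is upstream), 1 row a gene, coloured by list. Each peak is placed from its own nearest TSS. The Ara-C peaks at different TSSs of EIF4G3, which do not overlap on the genome, are therefore drawn over each other. Mock and Ara-C peaks of EEF1A1, which do not overlap on the genome either, stand at like distances in separate lanes. The DNR peaks are those of EEF1A2, EEF1AKMT2 and EIF4E2.

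Of the 31 members with a mock peak, 23 also had a window peak under Ara-C (74.2%, 95% Wilson interval 56.8 to 86.3%), against 61.9% of the coding genes with a mock peak. The sign of this difference depends on the window: from 2 kb upstream to the TSS the member share was 54.5%, and the difference from coding genes was -3.96 points, against 12.3 in the full window. Under DNR 2 of the 31 had a window peak again (6.45%, 1.79 to 20.7%), against 13.5% of coding genes, a value inside the interval. By combination of lists, 21 members had peaks in mock and Ara-C, 11 in Ara-C alone, 8 in mock alone, 2 in all 3 lists and 1 in DNR alone. Members with both mock and Ara-C peaks and no DNR peak made up 30% of the 70, against 13.0% of coding genes. Those with Ara-C alone made up 15.7%, against 13.6%. Mock alone made up 11.4%, against 8.43%, all 3 lists 2.86%, against 2.34%, and DNR alone 1.43%, against 3.37%.

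At the level of single peaks, 18 of the 33 mock window peaks of members overlapped an Ara-C peak (54.5%, 38.0 to 70.2%), against 36.4% of mock window peaks of coding genes. None of the 33 overlapped a DNR peak, a count of 0 that by the same rule allows a share of up to 9.09%, and the share over coding genes was 4.17%. Of the mock peaks of 300 bp or more 5 of 6 were found again (83.3%, 43.6 to 97.0%, against 69.4% over coding genes), and of those of 150 bp, the narrowest the rule gave, 4 of 11 (36.4%, 15.2 to 64.6%, against 17.1%). Wider peaks were found again more often among coding genes at large too. EIF5 held the wide peak that had no Ara-C partner. In the 23 genes with peaks in both lists the widest Ara-C peak was wider in 15, equal in 5 and narrower in 3, by a median of 50 bp, from -150 to 400 bp. Over the 3038 coding genes with both, 42.5% were wider, 22.5% equal and 35.0% narrower, with a median of 0 bp. The 3 members with a narrower Ara-C peak were EEF1A1, EIF4E and EIF5A2.

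**Figure D3:**
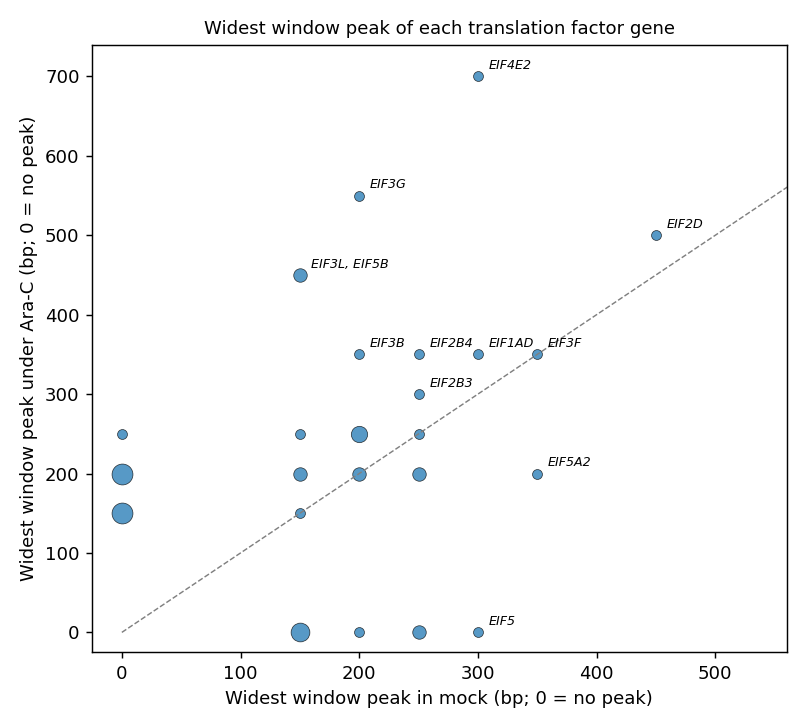
Width of the widest window peak of each of the translation factor genes in mock (bp, horizontal axis) against Ara-C (bp, vertical axis), with 0 for no peak and the dashed line at equal width; each point is a width pair, its area grows with the number of genes, and genes with a peak of 300 bp or more are named. EIF4E2 at 300 and 700 bp and EIF3G at 200 and 550 bp lie farthest above the line. EIF5 at 300 and 0 bp lies farthest below it, and EIF5A2 at 350 and 200 bp lies below it but nearer than some unnamed genes.

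The member windows held 33 mock, 41 Ara-C and 3 DNR peaks, or 117, 145 and 10.6 peaks per Mb of window. Over all coding genes the densities were 68.4, 87.2 and 20.8 per Mb. At the coding density the member windows would hold 19.3, 24.6 and 5.89 peaks, and the exact Poisson intervals of the observed counts were 22.7 to 46.3, 29.4 to 55.6 and 0.619 to 8.77. The ratio of DNR to mock peaks was 0.0909 in member windows (exact interval 0.0178 to 0.290), 0.305 in all coding windows (0.288 to 0.322) and 0.754 over the whole lists. The pile-up threshold was 5 in mock and 4 under either drug, and its part in these ratios was not tested. The Ara-C to mock ratio was 1.24 in member windows (0.766 to 2.03) and 1.28 in all coding windows, and the member interval holds the latter.

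Mock peaks of members gathered at the TSS. The median offset of the midpoint was -75.5 bp (negative is upstream), 18 of 33 (54.5%) were within 250 bp of a TSS, and 7 covered one. Under Ara-C the median was -134.5 bp, 20 of 41 (48.8%) were within 250 bp and 12 covered a TSS. By gene, a peak covered a TSS at 10% of members in mock and 17.1% under Ara-C. The shares were 7.52 and 9.41% of coding genes, and 10.2 and 12.4% of the CpG-rich ones. The side of the TSS depends on the start sites used: from the 5' end of each gene alone the medians were -7.5 bp in mock and 56.5 bp under Ara-C. The coding genes had 45.3 and 43.8% of their window peaks within 250 bp in these lists and 20.6% under DNR. None of the 3 DNR peaks of members was that close: they sat 1470 and 490 bp upstream and 436 bp downstream. By annotation, 14 mock peaks had their midpoint outside the gene on the upstream side, 6 in an exon and 13 in an intron, and under Ara-C the numbers were 13, 12 and 16. The median offsets over all coding genes were -86.5 bp in mock and -90.5 bp under Ara-C, within the spread of the member offsets. The median width was 200 bp in mock and Ara-C and 150 bp under DNR, for members and for all coding genes alike.

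**Figure D4:**
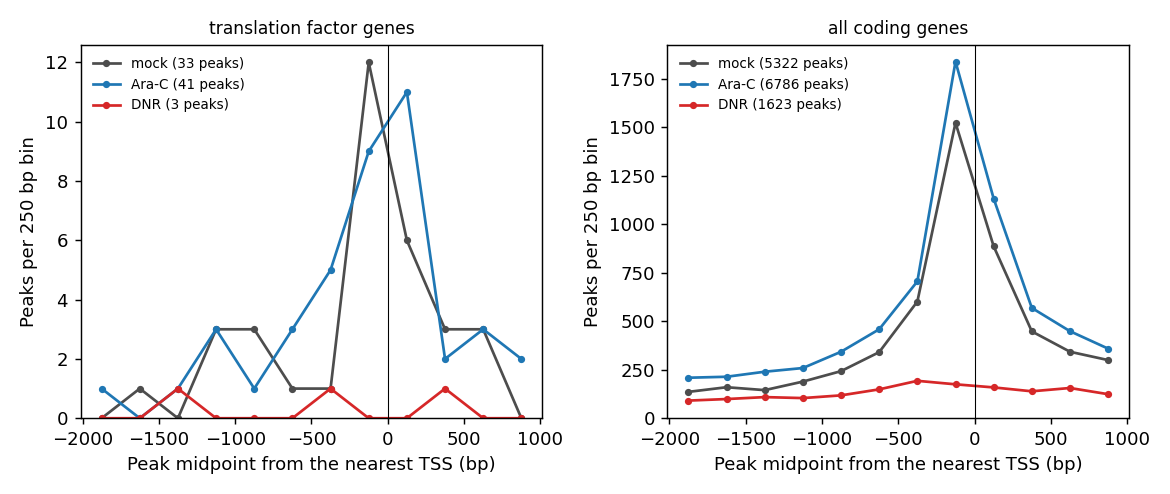
Number of window peaks per 250 bp bin (vertical axis) by distance of the midpoint from the nearest TSS (bp, horizontal axis; negative is upstream), for translation factor genes (left) and all coding genes (right), 1 line a list, on separate vertical scales. The member peaks in mock and Ara-C are highest in the bins beside the TSS, where none of the 3 DNR peaks lies.

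Outside the windows, in the rest of the gene bodies, the DNR list lay closer to mock than in the windows. Member bodies held 47 mock, 71 Ara-C and 32 DNR peaks, at 27, 33 and 19 genes (38.6, 47.1 and 27.1%, against 39.3, 50.3 and 33.5% of coding genes), so members with a body peak were no more frequent than among coding genes. The densities were 18.3, 27.7 and 12.5 peaks per Mb against 15.3, 25.9 and 12.3 over coding genes. The DNR to mock ratio was 0.681 there (exact interval 0.420 to 1.09), an interval that does not overlap that of the member windows, and over all coding genes the ratios were 0.800 in bodies and 0.305 in windows. The Ara-C to mock ratio was 1.51 in member bodies (1.03 to 2.23), against 1.69 in those of all coding genes, and its interval overlaps that of the member windows. EIF4G3, the longest of these genes with window peaks confined to Ara-C, held 8 mock, 9 Ara-C and 4 DNR peaks in its body. EIF2D and EIF3L each held 3, 2 and 4, so both had DNR peaks inside the gene and none in the window. EEF1E1 had 3 DNR peaks and 1 Ara-C peak in its body, and none in mock.

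The closest peak to a TSS was a median of 2468 bp away in mock for members and 12104.5 bp for coding genes. Under Ara-C the medians were 1403 and 6491.5 bp, and under DNR 40238.5 and 26751.5 bp. For CpG-rich coding genes they were 7845, 3987 and 23732 bp. The member medians were thus the shortest of the 3 sets in mock and Ara-C and the longest under DNR, with no test. Within 10 kb of a TSS, 45, 48 and 16 of the 70 genes had a peak (64.3, 68.6 and 22.9%), against 46.5, 58.0 and 28.8% of coding genes and 53.9, 65.2 and 30.7% of the CpG-rich ones. Just outside the window, EIF6 had a mock peak whose midpoint missed while its edge lay 968 bp downstream of the TSS, and EIF4EBP2 had an Ara-C peak with its edge 1050 bp away.

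**Figure D5:**
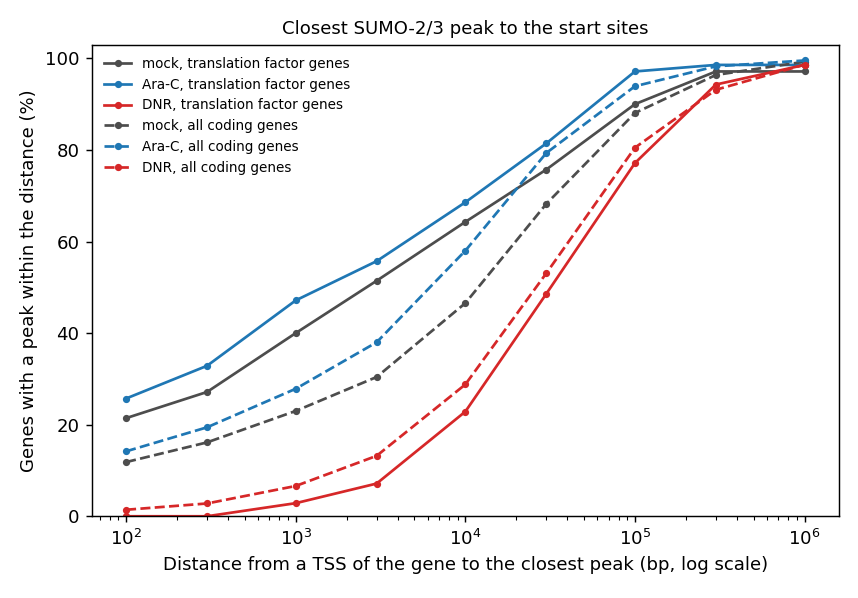
Cumulative share of genes (%, vertical axis) with a SUMO-2/3 peak within a distance of a TSS (bp, log scale, horizontal axis), for translation factor genes (solid) and all coding genes (dashed), coloured by list. At 10 kb the solid lines stand at 64.3, 68.6 and 22.9% (mock, Ara-C, DNR) and the dashed lines at 46.5, 58.0 and 28.8%.

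Among the RefSeq promoters, the E-box letters CACGTG were in 15 of 56 members (26.8%), against 8.90% of 15304 coding genes and 10.9% of the 9275 CpG-rich ones. They were in 10 of the 26 members with a mock window peak and in 5 of the 30 without, while the ETS letters were in 4 and 5, the GC box in 20 and 22 and CCAAT in 12 and 10 of these, and none of the splits was tested. The ETS letters CCGGAAGT were in 9 members (16.1%, against 6.32% and 8.80%). The GC box GGGCGG was in 42 (75%, against 59.3% of coding and 81.7% of CpG-rich genes), and CCAAT in 22 (39.3%, against 36.6% of coding genes). Of the other motifs searched, TGACGTCA (CRE) was in 1 member (1.79%, against 2.64% of coding genes), GCATGCGC (NRF1) in 2 (3.57%, against 4.25%), AAGATGGCG (YY1) in 3 (5.36%, against 2.80%) and TATAAA in 3 (5.36%, against 9.59% of coding and 3.60% of CpG-rich genes). The CTCF core motif was in the promoter of EIF3C (1.79%, against 0.372%). Inside the peaks, CACGTG was in 5 of 33 mock peaks of members (15.2%, against 6.78% of window peaks of coding genes) and CCGGAAGT in 6 (18.2%, against 3.98%). The core of the CTCF motif was in none of the 33, which allows up to 9.09%, and in 1.92% of those of coding genes. No motif's letters contain those of another, both strands were read, and these shares had no test.

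The mRNAs of 10 members are classed with the TOP messages, whose translation is tied to growth signals. EEF1A1, EIF3F and EIF4B of these had mock peaks (30%, against 24.8% of coding genes), and the same 3 with EIF3H had Ara-C peaks (40%, against 30.2%). With 10 genes these shares are near the background. Other gene lists of protein synthesis are given beside the members and the coding genes (24.8, 30.2 and 8.06%). Of 93 cytoplasmic ribosomal protein genes, 43.0% had a mock peak, 54.8% an Ara-C peak and 4.30% a DNR peak, and of 78 mitochondrial ribosomal protein genes 59.0, 53.8 and 2.56%. These shares and those of the 70 members have intervals that overlap in every list, as the plot of shares by gene set shows. Of 20 cytosolic aminoacyl-tRNA synthetase genes 11 had a mock, 12 an Ara-C and 2 a DNR peak (55, 60 and 10%), the last being HARS1 and RARS1. Release and accessory factors had 7, 9 and 0 of 18 (38.9, 50 and 0%), and mitochondrial translation factors 4, 7 and 1 of 10 (40, 70 and 10%), the DNR gene being TUFM.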

How the data were processed

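SUMO-2/3 chromatin immunoprecipitation was sequenced from 1 library per condition, each pooled from 3 replicates. Per the labels and the study's methods, reads were demultiplexed and aligned to hg19 with CASAVA 1.8.2, and Pasha scaled them and subtracted the input. The names of the deposited lists give uniquely placed reads, extended to 210 bp (mock, Ara-C) or 220 bp (DNR), with a pile-up threshold of 5 in mock and 4 in the drugged libraries, in 50 bp bins. The deposited lists hold the runs that WigPeakCaller took at a value of 32, a gap of at most 100 bp and a length above 100 bp. They give positions alone, so depth per library is unknown from them. How the differing settings bear on list length was not tested.

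Positions are 1-based on hg19. TSSs (55871 distinct) came from basic protein-coding transcripts of GENCODE 44 lifted to that build, and promoter composition from RefSeq matched by symbol (56 of 70 members, 15304 of 19812 coding genes). Peak placing was done in Python 3.11.15 (numpy 2.4.6, scipy 1.17.1), with figures by matplotlib 3.10.9. It was checked with bedtools 2.31.1, which differed at 0 genes, and tested on simulated data, where 4000 of 4000 planted genes were recovered. Intervals are Wilson (shares), exact Poisson (counts) and exact binomial (ratios of counts) at 95%, the limit for a count of 0 is 3 counts of the total, and no p-value was computed. Windows were called shared when they overlapped that of another coding gene, and mock peaks were found again when at least 1 bp overlapped. Alternatives changed the window, the peak width, the placing rule and the overlap, or left out shared windows. Genes described in full were those with a peak of at least 300 bp in any list, a peak in all 3 lists, or a DNR peak and no mock peak. The members and lists were chosen with earlier results of these data known. A gene of the modifying-enzyme list, EEF1AKNMT, was not found under that symbol in the annotation.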

Additional observations from a re-analysis of the deposited data

How the results depend on the processing

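Over 18 results and 10 settings, 80 of 89 alternatives kept the direction and stayed within the interval, quartiles or 1.5-fold range of the reported value. With the 5' end of each gene as its only start site the median Ara-C offset turned from -134.5 to 56.5 bp, since other start sites then drop out. With peaks of at least 200 bp, 1 member had a DNR window peak, and the median DNR offset, then that of a single peak, turned from -489.5 to 436.5 bp. With the window from 2 kb upstream to the TSS, 21 members had an Ara-C peak, their share was 6.51 points above that of coding genes, 54.5% of the mock members had an Ara-C peak again, a difference from coding genes of -3.96 points in place of 12.3, and 0 had a DNR peak again. Fewer peaks enter by construction in both settings; the cause of the turned sign of that difference was not tested. With shared windows left out, 17 members had a mock peak, from fewer genes. Leaving out the readthrough gene EEF1AKMT4-ECE2, an alternative chosen after seeing the data, kept the direction of each result it was run on. No paired analysis was possible because the lists come from 1 pooled library per condition. With no heights or reads in the lists, a peak that missed the rule narrowly cannot be told from no signal.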
